A study of Drosophila melanogaster with 12 samples.

Results

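Cells of the lamellocyte clusters LM1 and LM2 were compared between wounded and unwounded *Drosophila* larvae. The members were taken by their deposited cluster number, and they were 1405 of the 13288 cells in 8 libraries, with 337 cells of unwounded and 1068 of wounded larvae. The merged table of the study held 19458 cells, including 3 libraries of wasp-infested larvae that were not part of this comparison. Both conditions used *Hml>EGFP* larvae of the third instar (*w*, with *Hml-GAL4Δ* and *UAS-2X EGFP*), in which the *Hml* driver marks plasmatocytes. Wounded larvae were pricked with a tungsten needle at 96 hr after egg laying (AEL), control larvae were left intact, and both were bled on the following day after sessile hemocytes had been shaken loose. Each library pooled the blood of many larvae. There were 4 libraries a condition. Replicates 1 and 2 came from 10X Chromium droplets, and replicates 3 and 4 from inDrops runs in which the unwounded and wounded library of a replicate were multiplexed. Beyond this, the labels did not say which larvae or days the libraries shared, so the p-values below measure the spread between these libraries. For p-values with the replicate block, a limit is given below.

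Lamellocytes are large flat hemocytes that wrap around wasp eggs and other bodies too big for phagocytosis. They are rare in healthy larvae and arise after infestation or wounding, both in the lymph gland and from circulating plasmatocytes. The marker gene *atilla* encodes a small membrane-anchored surface protein, and mature lamellocytes are also known for integrins, tubulins and *PPO3*, a prophenoloxidase that serves melanization.

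The clusters were small in the unwounded libraries. Unwounded replicates 1 to 4 gave 68, 113, 143 and 13 cells, and wounded replicates 1 to 4 gave 238, 206, 368 and 256. Cluster LM2 made up 0, 0, 23 and 3 of the unwounded cells and 30, 8, 53 and 30 of the wounded cells. The unwounded 10X Chromium libraries thus held LM1 cells alone. The summed unique molecular identifiers (UMIs) of the LM cells were 18691 in unwounded replicate 4, between 191358 and 752871 in the other unwounded libraries, and between 805971 and 1192495 in the wounded libraries. In unwounded replicate 4, a single UMI of a gene corresponded to 37.8 TMM-scaled CPM, the unit in which levels are given here (a gene's UMIs normalised to all UMIs of the library's LM cells, with the TMM factors of edgeR). Levels of plasmatocyte and crystal cell clusters are plain CPM. The median LM cell held 1324 to 5342 UMIs in the unwounded and 3063.5 to 4517.5 in the wounded libraries, with medians of 7.28% to 14.3% and 10.4% to 16.4% mitochondrial UMIs. Of cell barcodes, 1 was shared between the LM cells of a pair of libraries (wounded replicates 3 and 4).

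The deposited label was checked against *atilla* and 11 further lamellocyte markers. In the unwounded LM cells, *atilla*, *ItgaPS4*, *Drip* and *Tret1-1* were nearly absent while other markers were present, so the defining marker did not bear out the lamellocyte label there, and the cells are called LM cells by their cluster. *cher*, the filamin gene, had 127, 273, 228 and 25 UMIs in unwounded replicates 1 to 4, and *mys*, which encodes an integrin beta subunit, had 59, 128, 158 and 27. A UMI of *alphaTub85E* was present in 27.9% to 41.3% of the unwounded cells. *atilla* had 0, 32, 19 and 11 UMIs in unwounded replicates 1 to 4, and the 32 UMIs of replicate 2 all came from 1 cell. *ItgaPS4*, *Drip* and *Tret1-1* together had 5 UMIs in the 337 unwounded cells. In unwounded replicate 4, a single LM2 cell of 1825 UMIs held 36 of the 36 UMIs of *betaTub60D*, 32 of the 35 of *PPO3*, 18 of the 24 of *alphaTub85E* and 6 of the 11 of *atilla*. As a description, the level in LM cells was set against that in the plasmatocyte clusters (PM1 to PM12) of the same library, as log2 of the ratio of CPM + 10. The highest of these log2 ratios that held in all 3 larger unwounded libraries was 1.05 (*sano*), followed by 0.98 for *Mmp1*, and it was 0.48 for *mys*, 0.45 for *alphaTub85E* and 0.44 for *cher*. In all 4 wounded libraries it was at least 4.05 for *betaTub60D*, 3.74 for *wun2*, 3.46 for *atilla*, 3.33 for *CG18754* and 3.32 for *PPO3*. These genes took part in the clustering, so the ratios are no test.

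*atilla* (FBgn0032422, chromosome 2L, 12175451 to 12177886, minus strand; Release 6 coordinates, as for every gene position below) was higher in the wounded LM cells. Its levels were 0, 45, 41.5 and 416 TMM-scaled CPM in unwounded replicates 1 to 4 and 1476, 929, 316 and 408 in wounded replicates 1 to 4. The wounded libraries were above the unwounded ones within 10X Chromium, while unwounded replicate 4 was above both wounded inDrops libraries. The log2 fold change was 3.71 ± 0.76 (SE, adjusted p = 0.00548) in edgeR's quasi-likelihood test with technology as covariate. Within 10X Chromium the log2 fold change was 5.30 (adjusted p = 0.000518), and within inDrops it was 1.11 (adjusted p = 1). Most of the wounded UMIs of *atilla*, 2403 of 3069, lay in LM2, and in LM1 alone the log2 fold change was 3.04, adjusted p = 9.03e-06.

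The share of LM cells with an *atilla* UMI was compared after each cell had been thinned to 500 UMIs, which removed no cell. The thinned shares were 0%, 0.885%, 4.2% and 15.4% in unwounded replicates 1 to 4 and 19.3%, 8.74%, 9.24% and 10.2% in wounded replicates 1 to 4. The means were 5.12% ± 7.08 (SD, n = 4) and 11.9% ± 5.01 (SD, n = 4), and the difference of 6.75 percentage points did not exceed the spread (two-sided exact permutation test, p = 0.2, where 4 against 4 libraries can reach 0.0286). Without unwounded replicate 4, whose share rested on 2 of 13 cells (95% exact interval 1.92% to 45.4%), the difference was 10.2 percentage points. That design cannot go below p = 0.0571, which is the p it gave in the exact permutation test. In unwounded replicate 1, a count of 0 in 68 cells allows a share of cells with a UMI of up to 4.41% when set as 3 counts, and 5.28% by the exact 95% interval. In plasmatocyte cells thinned in the same way, the background share was 0% to 0.223% in the unwounded and 0.165% to 0.927% in the wounded libraries, with median depths of 1034 to 4110 and 1797 to 3447.5 UMIs. Without thinning, the LM shares were 0% to 23.1% and 18.9% to 23.5%. Cluster LM2 was uneven in its marker. An *atilla* UMI was present in 30 of 30 and 8 of 8 LM2 cells of wounded replicates 1 and 2, in 26 of 53 and 20 of 30 of wounded replicates 3 and 4, and in 3 of 23 and 2 of 3 of unwounded replicates 3 and 4. For reference, thinned shares in the LM cells of the wasp inf. 24 hr libraries (Drop-seq, another strain and age) were 23.7% to 57.4%.

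**Figure D1:**
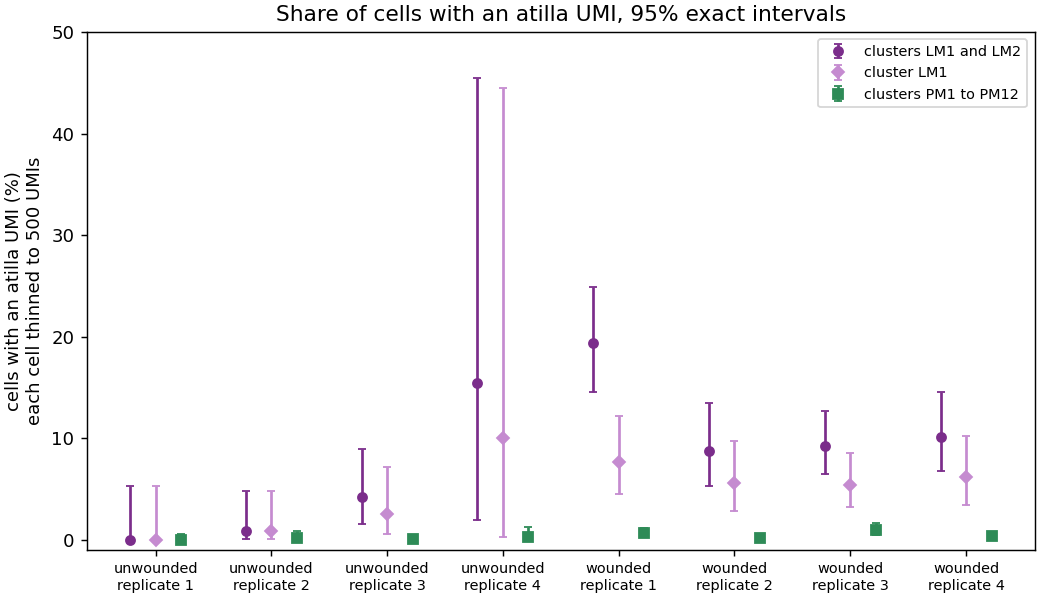
Share of cells with at least 1 *atilla* UMI (y axis, %, each cell thinned to 500 UMIs) in each of the 8 libraries (x axis), for clusters LM1 and LM2 together, cluster LM1 and clusters PM1 to PM12. Bars are 95% exact binomial intervals, which cover counting error only. The LM shares of wounded libraries run from 8.74% to 19.3%, and unwounded replicate 4 has the widest interval, 1.92% to 45.4%.

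Most of the genes called in the LM cells were higher in the wounded libraries, while the genes tested showed no general shift. Of 5509 genes tested, 99 were called at an adjusted p under 0.05 (1.8%), 93 higher (1.69%) and 6 lower (0.109%), with a median log2 fold change of 0.03 over all genes. With the replicate number as a block, as the pairing of the libraries allows, 272 of 5933 genes (4.58%) were called, 220 higher (3.71%) and 52 lower (0.876%), and the 99 were all among them. Of the 93 higher genes, 62 had all 4 wounded libraries above all 4 unwounded ones, against 3.72% of all genes tested whose groups did not overlap in either direction. Within each technology, 69 of the 99 were separated in the called direction, while 6.46% of all genes were separated with the wounded libraries higher and 1.27% with them lower. Of the 6 lower genes, 0 had groups that did not overlap. Without unwounded replicate 4, 120 genes were called (110 higher), and without wounded replicate 3 or 4, 150 each. In cluster LM1 alone, 60 of 5406 genes (1.11%) were called, 57 of them higher (1.05%) and 3 lower (0.0555%). Of the 99, 76 could be tested in LM1 alone, each with the same sign, and 54 were called.

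The raised genes differed in how much of their signal lay in LM2, which held 11.3% of the wounded LM cells and 12.1% of their UMIs. Over the 93 higher genes, a median of 38.2% of the wounded UMIs lay in LM2. For 36 genes it was over 50%, with 98.7% for *CG1208*, 99.1% for *Drip* and 88.3% for *ItgaPS4*. For 21 genes it was under 20%, with 3.95% for *Drs*, 3.92% for *Mtk* and 7.91% for *CG18754*. Since the clusters were formed from these values, the shares are a description. In the summed LM cells, more LM2 cells and more RNA per cell cannot be told apart. Values in LM1 alone are therefore given beside some of the genes below, and for the remaining genes this limit stands. LM1 was formed from the same values. Its values leave out the LM2 cells but cannot tell a shift in cell mix within LM1 from more RNA per cell.

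**Figure D2:**
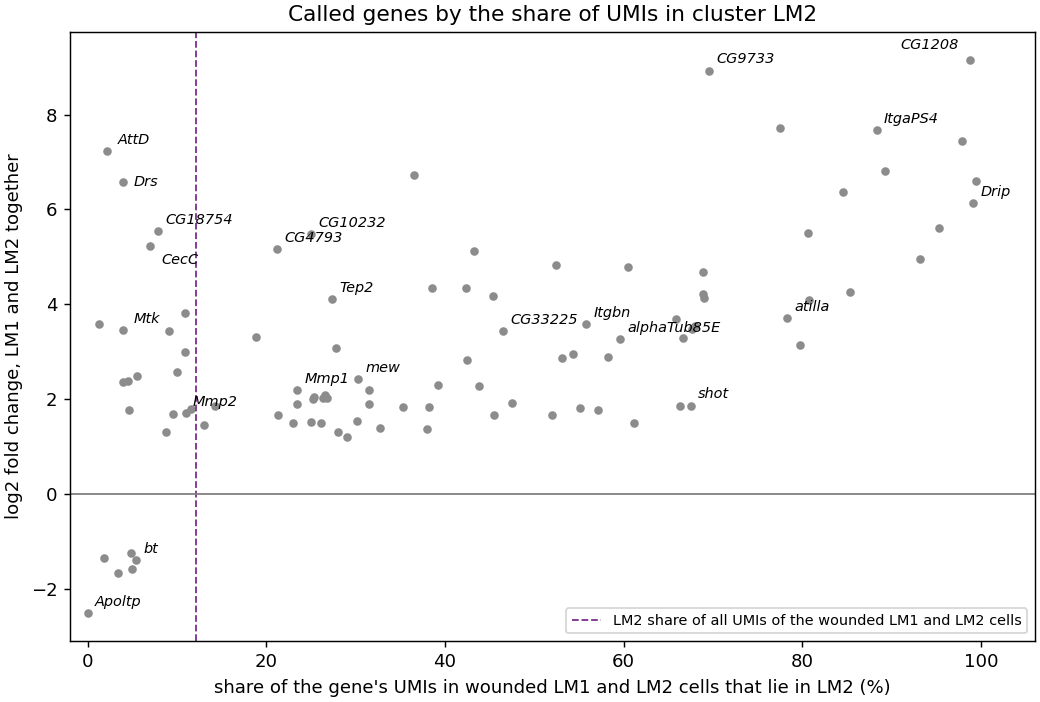
Each point is 1 of the 99 called genes. The x axis is the percentage of the gene's UMIs in wounded LM cells that lay in cluster LM2, and the y axis the log2 fold change of wounded against unwounded in LM1 and LM2 together. The dashed line marks the 12.1% of all wounded LM UMIs that LM2 held. The antimicrobial peptide genes *AttD*, *Drs*, *CecC* and *Mtk* lie left of it, and *CG1208*, *Drip* and *ItgaPS4* at the far right.

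Some of the lamellocyte markers rose. Of the 12 markers, all were tested, 5 were called higher and 0 lower, with a median log2 fold change of 2.61 against 0.03 over all genes. With the replicate block 10 were called higher, in LM1 alone 4, and with DESeq2 2. Of all genes tested, 1.69% were called higher in the main test, 3.71% with the replicate block and 1.05% in LM1 alone. DESeq2 called 84 genes in both directions together. The list was drawn up with the study's own marker genes at hand, which came from these libraries, so its direction is not independent evidence. *ItgaPS4*, *Drip* and *Tret1-1* would not have passed the filter on low counts by their unwounded libraries. The count of calls thus depends in part on the filter. The summed level of the 12 markers was 989.5 to 9684 CPM in the unwounded libraries, the highest of them in unwounded replicate 4, and 5537 to 12946 CPM in the wounded ones.

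*ItgaPS4* (FBgn0034005, chromosome 2R, 15258761 to 15262873, plus strand), which encodes an integrin alpha subunit, had 0, 0, 0 and 1 UMIs in unwounded replicates 1 to 4 and 372, 167, 97 and 31 in wounded replicates 1 to 4. Every wounded library was above every unwounded one in TMM-scaled CPM, although 1 UMI put unwounded replicate 4 at 37.8, close to the 44.2 of wounded replicate 4. The log2 fold change was 7.67 ± 0.84 (SE, adjusted p = 3.14e-06). Pooled over libraries, the level was 241 times that of the unwounded cells, with a 95% counting interval of 43.2 to 9546. The gene had too few UMIs to be tested in LM1 alone. *Drip*, an aquaporin gene, had 0, 0, 0 and 1 and 137, 63, 20 and 2 UMIs (log2 fold change 6.14 ± 1.00, SE, adjusted p = 0.000409). *Tret1-1*, which encodes a trehalose transporter, had 0, 1, 0 and 2 and 312, 62, 17 and 18 UMIs (log2 fold change 5.60 ± 0.96, SE, adjusted p = 0.000703). For both genes, the highest level was that of wounded replicate 1, and 1 or 2 UMIs put unwounded replicate 4 above both wounded inDrops libraries.

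The tubulin gene *alphaTub85E* (FBgn0003886, chromosome 3R, 9731221 to 9733250, minus strand) had levels of 142, 107, 303 and 908 TMM-scaled CPM in the unwounded and 3893, 1846, 1884 and 2184 in the wounded libraries. All wounded libraries were above all unwounded ones, and wounded replicate 1 stood far above the rest of its group. The log2 fold change was 3.27 ± 0.53 (SE, adjusted p = 0.000381), and in LM1 alone it was 2.72, adjusted p = 1.46e-06. *betaTub60D*, a second tubulin gene, had 10.5, 4.22, 50.2 and 1362 TMM-scaled CPM in the unwounded and 2849.8, 886, 1231 and 697 in the wounded libraries. Its log2 fold change of 3.80 ± 1.17 (SE, adjusted p = 0.142) missed the threshold with all libraries. It passed without unwounded replicate 4, where 1 cell held all of its UMIs (adjusted p = 0.00106), without any 1 wounded library (adjusted p = 0.00129 to 0.0238), with the replicate block (adjusted p = 1.41e-25), and in LM1 alone (4.78, adjusted p = 2.85e-09). *PPO3* also missed it, with 10.5, 30.9, 10.9 and 1324 TMM-scaled CPM in the unwounded and 609.9, 389, 311 and 354 in the wounded libraries and a log2 fold change of 1.95 ± 0.96 (SE, adjusted p = 0.679). Without unwounded replicate 4 it was 4.50 (adjusted p = 5.01e-05), with the replicate block 2.70, adjusted p = 5.16e-13, and in LM1 alone 2.32, adjusted p = 0.000712. For both *betaTub60D* and *PPO3*, unwounded replicate 4 lay above wounded replicate 4, so the pairs disagreed in direction. The p-values with the block draw on a spread estimated over many genes and do not measure this disagreement. The remaining markers *mys*, *ItgaPS5*, *cher*, *msn* and *Treh* had log2 fold changes between 0.49 and 1.81 that did not pass. With the replicate block, *mys* (1.40, adjusted p = 0.000106), *ItgaPS5* (0.88, adjusted p = 0.0329) and *Treh* (1.63, adjusted p = 4.18e-06) did, and *mys* also did without unwounded replicate 4 (log2 1.74, adjusted p = 0.00468) or wounded replicate 3 (log2 1.55, adjusted p = 0.0367).

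**Figure D3:**
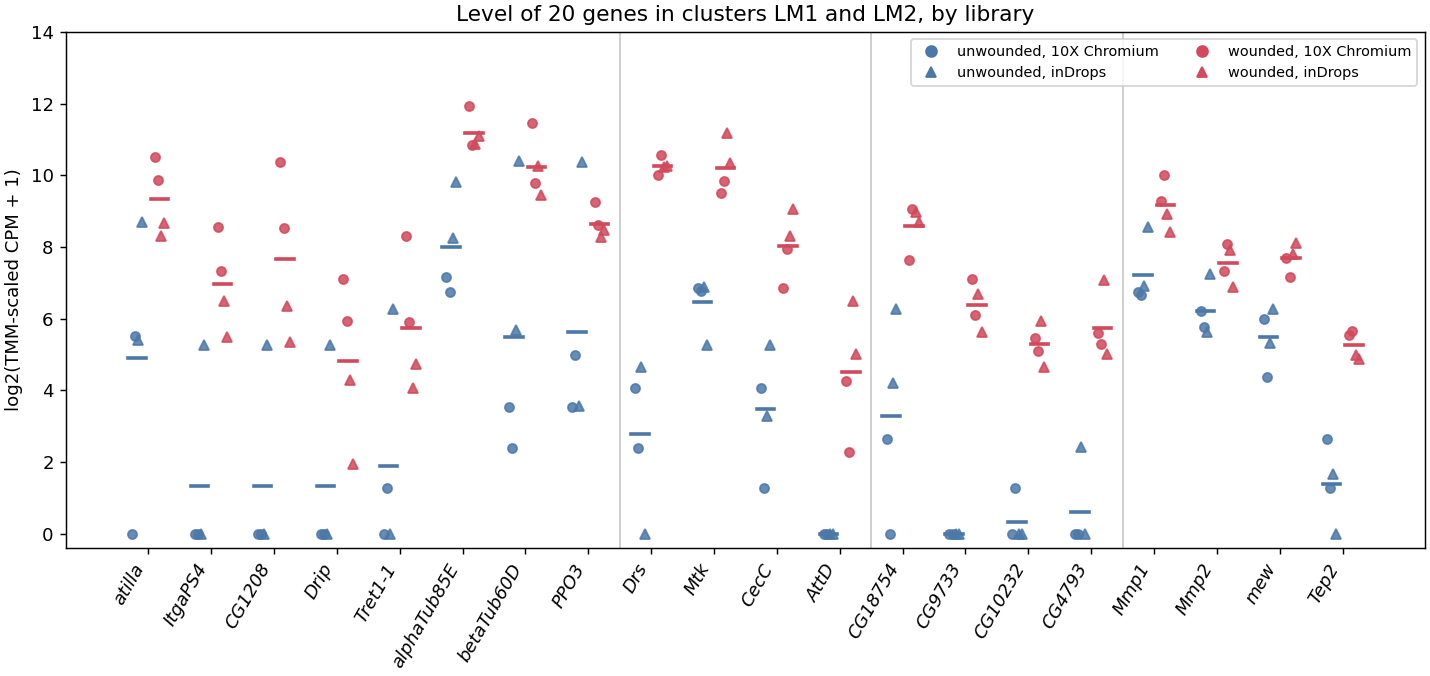
Levels of 20 genes in LM1 and LM2 cells, as log2(TMM-scaled CPM + 1) on the y axis. Each point is 1 library (circles 10X Chromium, triangles inDrops), and bars are the means of 4 libraries. Grey lines separate lamellocyte markers with *CG1208*, antimicrobial peptide genes, serine protease genes, and matrix, integrin and thioester genes. *Drs* and *Mtk* have 4 wounded values above all 4 unwounded ones. Unwounded replicate 4 lies above all 4 wounded libraries for *PPO3* and among them for *betaTub60D*.

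Antimicrobial peptide genes rose, with 4 of 5 tested genes called. These genes encode secreted peptides that are induced through the Toll and IMD pathways. Of 24 genes in the list, 17 were in the table, 5 passed the filter on low counts, and 4 of those were called higher and 0 lower, with a median log2 fold change of 5.22. Over all genes tested, 1.69% were called higher and the median was 0.03. *AttD*, without a UMI in any unwounded library, passed the filter through the wounded libraries alone. *Drs* and *CecC* would also not have passed it by their unwounded libraries. These counts and the median thus depend on the filter and are no test. DESeq2 called 4 as well. *Drs* (FBgn0283461, chromosome 3L, 3369556 to 3369942, plus strand), which encodes the antifungal peptide Drosomycin, had 15.8, 4.22, 24 and 0 TMM-scaled CPM in unwounded replicates 1 to 4 and 1040.3, 1530.2, 1196 and 1219 in wounded replicates 1 to 4. The groups were far apart, and the 4 wounded libraries lay within a narrow range. The log2 fold change was 6.57 ± 0.52 (SE, adjusted p = 2.7e-08), and in LM1 alone it was 6.96, adjusted p = 5.52e-12. Of the LM cells, 0% to 4.2% had a *Drs* UMI in the unwounded libraries and 36.4% to 50.5% in the wounded ones. The signal was uneven, as the 10% of wounded LM cells richest in it held 65.2% to 80.3% of the *Drs* UMIs of their library. In plasmatocyte cells the shares were 0.223% to 2.64% and 29.5% to 50.5%, at the median depths given above.

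*Mtk* (FBgn0014865, chromosome 2R, 15408846 to 15409113, plus strand), which encodes Metchnikowin, had 116, 108, 118 and 37.8 TMM-scaled CPM in the unwounded and 726, 914, 2327 and 1292 in the wounded libraries. Every wounded library exceeded every unwounded one, and the log2 fold change was 3.46 ± 0.41 (SE, adjusted p = 8.71e-06). In LM1 alone it was 3.49, adjusted p = 7.76e-08. *AttD*, which encodes an attacin-family protein, had 0 UMIs in all unwounded libraries and 18, 4, 96 and 22 in wounded replicates 1 to 4. Against a floor of 3 UMIs over the unwounded group, its pooled level was at least 16.9-fold higher, and its fitted change passed the test (adjusted p = 0.00248), a call that was lost without unwounded replicate 3 (log2 6.08, adjusted p = 0.0754). *CecC* is one of several similar cecropin genes whose reads may be shared, so its value is uncertain. It had 15.8, 1.41, 8.73 and 37.8 TMM-scaled CPM in the unwounded and 114, 247, 317 and 532 in the wounded libraries (log2 fold change 5.22 ± 0.54, SE, adjusted p = 1.82e-06). The fifth tested gene, *CG43236*, had a log2 fold change of 0.35 and did not pass (adjusted p = 1). *CecB*, *DptB* and *Dro* had 0 UMIs in the unwounded LM cells and 63, 46 and 13 in the wounded ones, and were not tested.

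Of the 12 genes named for the largest increases, 4 belong to the serine protease family. CLIP-type and other secreted serine proteases, and homologs without catalytic activity, act in the cascades that lead to Toll activation and melanization. *CG18754* (FBgn0042106, chromosome 3R, 23684057 to 23686537, plus strand), listed as cSP61 in RefSeq, had 5.26, 0, 17.5 and 75.6 TMM-scaled CPM in unwounded replicates 1 to 4 and 199.6, 533, 501 and 416 in wounded replicates 1 to 4. Each wounded library was above each unwounded one. The log2 fold change was 5.55 ± 0.61 (SE, adjusted p = 3.14e-06), and in LM1 alone it was 5.60, adjusted p = 2.45e-08. *CG9733* (FBgn0039759, chromosome 3R, 30243978 to 30246703, minus strand), which RefSeq lists as c-SP10 and proPO-AE, had 0 UMIs in the unwounded LM cells and 135, 72, 111 and 34 in wounded replicates 1 to 4. Its pooled level was at least 42.5-fold higher than the floor of 3 UMIs over the unwounded group (adjusted p = 6.51e-06). *CG10232* (cSP14) had 0, 1, 0 and 0 and 43, 35, 65 and 17 UMIs (pooled ratio 57.9, 95% counting interval 10.2 to 2301, adjusted p = 7.09e-05), and *CG4793* (cSPH128) had 0, 0, 2 and 0 and 47, 40, 146 and 22 UMIs (pooled ratio 46.1, interval 12.6 to 383, adjusted p = 0.000124). All 4 kept an adjusted p under 0.05 in LM1 alone. In the separate list of known melanization proteases and serpins, 5 genes were tested and 0 were called by edgeR or DESeq2, with 1 at an unadjusted p under 0.05.

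Further genes with the largest changes were of other kinds. *CG1208* (FBgn0037386, chromosome 3R, 5831639 to 5838782, plus strand), a predicted sugar transporter gene, had 0, 0, 0 and 1 UMIs in unwounded replicates 1 to 4 and 1311, 388, 88 and 28 in wounded replicates 1 to 4. The wounded levels ran from 39.9 TMM-scaled CPM in replicate 4 to 1322 in replicate 1, and 1 UMI put unwounded replicate 4 at 37.8. The pooled ratio was 657 (95% counting interval 118 to 25953), and the adjusted p was 2.41e-06. *lncRNA:CR44948*, a long non-coding RNA, had 0, 9.84, 0 and 37.8 TMM-scaled CPM in the unwounded and 1364, 535, 129 and 123 in the wounded libraries (log2 fold change 6.80 ± 0.65, SE, adjusted p = 6.54e-07). Its groups did not overlap, and it was also called in LM1 alone (3.65, adjusted p = 1.83e-05). *CG31769* had 0 UMIs in the unwounded libraries and 60, 43, 14 and 21 in the wounded ones, at least 16.6-fold higher than the floor over the group (adjusted p = 0.000101). *CAP*, which encodes an adaptor of the vinexin family, had 0, 1, 1 and 0 and 140, 65, 50 and 8 UMIs (pooled ratio 47.6, interval 13 to 395, adjusted p = 6.89e-05).

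In the list of actin cytoskeleton and adhesion genes, integrin genes led the calls. Of 35 genes tested, 5 were called higher and 0 lower, with a median log2 fold change of 0.54, where 1.69% of all genes were called higher and the median was 0.03. With the replicate block 8 were called higher, against 3.71% of all genes, and in LM1 alone 2, against 1.05%. Besides *ItgaPS4*, these were *mew* and *Itgbn*, which encode integrin subunits, *shot*, which encodes a spectraplakin linking actin and microtubules, and *rhea*, the talin gene. *mew* had 63.2, 19.7, 39.3 and 75.6 TMM-scaled CPM in the unwounded and 205, 142, 224 and 274 in the wounded libraries, without overlap of the groups (log2 fold change 2.42 ± 0.37, SE, adjusted p = 0.000202). *Itgbn* had 0, 2, 5 and 0 and 94, 47, 63 and 36 UMIs (log2 fold change 3.58 ± 0.54, SE, adjusted p = 0.000164). Like *ItgaPS4*, it would not have passed the filter on low counts by its unwounded libraries. The count of calls in this list thus depends in part on the filter. *shot* had 116, 99.8, 282 and 265 TMM-scaled CPM in the unwounded and 1316, 466, 453 and 374 in the wounded libraries (log2 fold change 1.86 ± 0.46, SE, adjusted p = 0.0341). Its call was lost in LM1 alone (0.55, adjusted p = 1) and without unwounded replicate 1 (log2 1.58, adjusted p = 0.116), unwounded replicate 2 (log2 1.43, adjusted p = 0.195), unwounded replicate 4 (log2 1.92, adjusted p = 0.102) or wounded replicate 1 (log2 1.27, adjusted p = 0.108). *rhea* rose by 1.37 ± 0.33 (SE, adjusted p = 0.0258) on the log2 scale and was not called in LM1 alone (1.00, adjusted p = 0.15), nor without unwounded replicate 1 (log2 1.29, adjusted p = 0.085), unwounded replicate 2 (log2 1.28, adjusted p = 0.166), unwounded replicate 3 (log2 1.37, adjusted p = 0.125), wounded replicate 1 (log2 1.22, adjusted p = 0.149) or wounded replicate 2 (log2 1.37, adjusted p = 0.0756).

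In the list for the JNK pathway and wound response, 2 of 14 tested genes were called higher, *Mmp1* and *Mmp2*, which encode the matrix metalloproteinases of the fly. The median log2 fold change of this list was 0.22, that of the JAK/STAT list 0.02, that of phagocytic receptors and Nimrods 0.14 and that of FGF genes -0.07, against 0.03 over all genes, of which 1.69% were called higher and 0.109% lower. *Mmp1* (FBgn0035049, chromosome 2R, 24671294 to 24688184, minus strand) had 105, 99.8, 120.03 and 378 TMM-scaled CPM in unwounded replicates 1 to 4 and 623, 1042, 488 and 344 in wounded replicates 1 to 4. Unwounded replicate 4 reached 378 on 10 UMIs and exceeded wounded replicate 4. The log2 fold change was 2.19 ± 0.43 (SE, adjusted p = 0.00404), and in LM1 alone it was 2.00, adjusted p = 0.00726. *Mmp2* had 73.7, 53.4, 48 and 151 TMM-scaled CPM in the unwounded and 160.3, 269.8, 241 and 117 in the wounded libraries (log2 fold change 1.71 ± 0.36, SE, adjusted p = 0.00796), and its call was lost without unwounded replicate 2 (log2 1.53, adjusted p = 0.0548), unwounded replicate 3 (log2 1.53, adjusted p = 0.101) or wounded replicate 2 (log2 1.45, adjusted p = 0.0583). In the JAK/STAT list, 2 of 9 tested genes were called, the thioester-containing complement-like genes *Tep2* and *Tep1*. *Tep2* had 1, 1, 1 and 0 and 45, 52, 33 and 20 UMIs (log2 fold change 4.10 ± 0.57, SE, adjusted p = 7.09e-05). It would not have passed the filter on low counts by its unwounded libraries, so counts of calls that include it depend in part on the filter. *Tep1* had 126, 71.7, 54.6 and 189 TMM-scaled CPM in the unwounded and 423, 338, 315 and 297 in the wounded libraries (log2 fold change 2.01 ± 0.35, SE, adjusted p = 0.000979). Among phagocytic receptors and Nimrods, 3 of 18 tested genes were higher and 1 lower. They were *Tep2*, *Itgbn* and the scavenger receptor gene *Sr-CIV*, whose log2 fold change of 1.39 ± 0.36 (SE, adjusted p = 0.0473) was not called in LM1 alone (0.99, adjusted p = 0.429), and the lower *NimB1*. The call of *Sr-CIV* was lost without unwounded replicate 1 (log2 1.08, adjusted p = 0.0968), unwounded replicate 4 (log2 1.36, adjusted p = 0.122), wounded replicate 1 (log2 1.41, adjusted p = 0.0537) or wounded replicate 2 (log2 1.28, adjusted p = 0.132). Of FGF genes, the ligand gene *pyr* was called among 5 tested (log2 fold change 1.50 ± 0.34, SE, adjusted p = 0.0148, in LM1 alone 1.21, adjusted p = 0.232), and it was lost without unwounded replicate 2 (log2 1.60, adjusted p = 0.0704), unwounded replicate 3 (log2 1.59, adjusted p = 0.0914) or wounded replicate 2 (log2 1.39, adjusted p = 0.0861).

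The lower genes were few and their groups overlapped. *Apoltp*, which encodes an apolipoprotein that transfers lipids, had 3, 31, 15 and 0 UMIs in the unwounded and 3, 5, 9 and 5 in the wounded libraries (log2 fold change -2.52 ± 0.46, SE, adjusted p = 0.00175). *NimB1*, a Nimrod-family gene, had 57.9, 142, 100.4 and 37.8 TMM-scaled CPM in the unwounded and 43.3, 62.7, 34.2 and 27.1 in the wounded libraries (log2 fold change -1.24 ± 0.32, SE, adjusted p = 0.0473). *bt*, which encodes the titin-like muscle protein projectin, had 179, 202, 111 and 113 TMM-scaled CPM in the unwounded and 111, 130.1, 10.2 and 27.1 in the wounded libraries (log2 fold change -1.40 ± 0.37, SE, adjusted p = 0.0473). Its decrease was present in inDrops, with a log2 fold change of -2.77, and smaller in 10X Chromium, with -0.67 (adjusted p = 0.01 and 0.753). The call of *Apoltp* was lost without unwounded replicate 2 (log2 -1.92, adjusted p = 0.166), that of *NimB1* without unwounded replicate 2 (log2 -1.01, adjusted p = 0.337), unwounded replicate 3 (log2 -0.93, adjusted p = 0.711), unwounded replicate 4 (log2 -1.29, adjusted p = 0.0602) or wounded replicate 1 (log2 -1.16, adjusted p = 0.166), and that of *bt* without unwounded replicate 3 (log2 -0.89, adjusted p = 0.833), unwounded replicate 4 (log2 -1.37, adjusted p = 0.13) or wounded replicate 3 (log2 -1.06, adjusted p = 0.137). The other 3 lower genes, which are named here after their values were seen, were *Gal* (-1.67 ± 0.35, SE, adjusted p = 0.00621), *alpha-Est1* (-1.59 ± 0.37, SE, adjusted p = 0.0162) and *lncRNA:CR45660* (-1.35 ± 0.35, SE, adjusted p = 0.0416), all with 0 UMIs in unwounded replicate 4.

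Of the other lists with a call, *alphaTub85E* was the called gene among 7 tubulin genes tested, *Tret1-1* among 16 genes of glycolysis and trehalose, *Apoltp* among 14 genes of lipid metabolism and *bt* was the 1 muscle marker tested. Many lists held no call. Of 82 cytosolic ribosomal protein genes, 65 nuclear genes of oxidative phosphorylation, 31 cell division genes, 18 genes of the unfolded protein response and 11 hemocyte transcription factor genes, 0 passed with edgeR or DESeq2, and 0 had an unadjusted p under 0.05. Of 10 Toll pathway genes, 0 were called and 2 had an unadjusted p under 0.05, and of 13 IMD pathway genes these numbers were 0 and 0. Plasmatocyte markers had 0 calls among 9 tested (2 at an unadjusted p under 0.05, and 0 called with DESeq2), with a median of 0.08. Their summed level in LM cells was 13322 to 30750.3 CPM in the unwounded and 14014 to 17460.3 CPM in the wounded libraries. *Hml* itself had 6716, 8699.8, 5567 and 2043 TMM-scaled CPM in the unwounded and 5628, 6445, 2922 and 3691 in the wounded libraries. The driven *EGFP*, which only the inDrops reference contained, had 3114 and 2118 TMM-scaled CPM in unwounded replicates 3 and 4 and 3075 and 2458 in wounded replicates 3 and 4. Markers of other tissues had low sums. Fat body markers summed to 0 to 44.8 and 13.4 to 31.9 CPM, salivary gland and gut markers to 0 to 1.95 and 0 to 0.997 CPM, and muscle markers to 134 to 207 and 36.9 to 159 CPM. The table held 7 of 10 fat body markers and 1 of 13 salivary gland and gut markers, so a low sum does not show that these tissues were absent. Crystal cell markers were not scarce, with sums of 53.5 to 1019 and 241 to 1029.7 CPM. In unwounded replicate 1 their sum was 1019 CPM, beside 1442 CPM for the 12 lamellocyte markers. The part of other cell types in the results was not tested.

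To see which changes were shared with plasmatocytes, the same comparison was made in the plasmatocyte clusters of the 8 libraries, and the difference between both changes was tested. In plasmatocytes, 10 of 7379 genes were called (0.136%), each of them higher, and 8 of the 10 were also called in LM cells. The 8 included the antimicrobial peptide genes *Drs*, *AttD* and *CecC*, while *DptB* was called in plasmatocytes and not tested in LM cells. The *Drs* level of plasmatocytes was 4.33, 9.2, 12.1 and 1.78 CPM in the unwounded and 1304, 709, 1175 and 1627 in the wounded libraries, close to that of LM cells. Its log2 fold change there was 7.13 ± 0.44 (SE, adjusted p = 8.63e-05), and the difference of LM cells from plasmatocytes was -0.31 ± 0.69 (SE, adjusted p = 0.99). For *Mtk* the difference was -0.45 ± 0.42 (SE, adjusted p = 0.88), for *AttD* 2.31 ± 3.81 (SE, adjusted p = 0.96) and for *Tep2* 0.88 ± 0.95 (SE, adjusted p = 0.906). In crystal cell clusters *Drs* had 22.7 to 264 CPM in the unwounded and 525 to 945 CPM in the wounded libraries. Free RNA in the droplets was not estimated. *atilla* also rose in plasmatocytes, from 0, 1.19, 0.56 and 1.78 to 11.5, 6.06, 16.8 and 10.3 CPM (log2 fold change 3.70 ± 0.56, SE, adjusted p = 0.0423). Its change differed between the classes by 0.02 ± 0.37 (SE, adjusted p = 1).

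The change differed between LM cells and plasmatocytes for 59 of 7154 genes (0.825%), 58 of them with a larger change in LM cells (0.811%) and 1 with a smaller one (0.014%). In LM1 alone 17 genes differed. Of the 99 genes called in LM cells, 26 were among the 59. Of the actin cytoskeleton and adhesion genes, 7 were called. *rhea* differed by 1.17 ± 0.18 (SE, adjusted p = 0.000846) on the log2 scale, *mew* by 1.52 ± 0.25 (SE, adjusted p = 0.00222), *mys* by 1.24 ± 0.22 (SE, adjusted p = 0.00497), *shot* by 1.69 ± 0.37 (SE, adjusted p = 0.0236), *Vinc* by 1.20 ± 0.27 (SE, adjusted p = 0.027) and *Pax* by 0.90 ± 0.21 (SE, adjusted p = 0.0329). These genes encode talin, integrin subunits, a spectraplakin, vinculin and paxillin. *rhea* kept the call when each library was left out in turn (highest adjusted p 0.0142), while *mys*, *Vinc* and *Pax* were called here but not in LM cells on their own (adjusted p = 0.11, 0.104 and 0.593). In LM cells, *Vinc* was called with the replicate block (1.54, adjusted p = 5.6e-06) and without unwounded replicate 3 (log2 2.27, adjusted p = 0.00537) or wounded replicate 4 (log2 1.61, adjusted p = 0.00554). The call of the difference was lost for *mew* without unwounded replicate 3 (log2 1.40, adjusted p = 0.0549), for *mys* without unwounded replicate 1 (log2 1.11, adjusted p = 0.057), for *shot* without unwounded replicate 1 (log2 1.57, adjusted p = 0.122) or unwounded replicate 4 (log2 1.72, adjusted p = 0.0665), for *Vinc* without unwounded replicate 1 (log2 1.14, adjusted p = 0.122) or unwounded replicate 2 (log2 0.95, adjusted p = 0.132) and for *Pax* without unwounded replicate 1 (log2 0.82, adjusted p = 0.15), unwounded replicate 2 (log2 0.89, adjusted p = 0.114) or unwounded replicate 3 (log2 1.06, adjusted p = 0.0675), with sizes near those of the full set. The muscle actin gene *Act57B* was the seventh, with 0, 1, 0 and 0 and 7, 7, 13 and 12 UMIs in LM cells. *Mmp1* differed by 1.75 ± 0.34 (SE, adjusted p = 0.0112), *alphaTub85E* by 1.84 ± 0.34 (SE, adjusted p = 0.00693), *Tret1-1* by 4.58 ± 0.96 (SE, adjusted p = 0.0183) and the insulin-like peptide gene *Ilp6* by 1.20 ± 0.27 (SE, adjusted p = 0.027). The calls were lost for *Mmp1* without unwounded replicate 1 (log2 1.72, adjusted p = 0.0522), for *alphaTub85E* without unwounded replicate 1 (log2 1.57, adjusted p = 0.0607), for *Tret1-1* without unwounded replicate 1 (log2 4.37, adjusted p = 0.0584) or unwounded replicate 3 (log2 3.83, adjusted p = 0.176), for *Ilp6* without unwounded replicate 1 (log2 1.18, adjusted p = 0.106), unwounded replicate 2 (log2 1.21, adjusted p = 0.102) or unwounded replicate 3 (log2 1.20, adjusted p = 0.174) and for *Act57B* without unwounded replicate 1 (log2 4.09, adjusted p = 0.0522) or unwounded replicate 3 (log2 3.05, adjusted p = 0.317). In plasmatocytes *Mmp1* had 45.4, 42.7, 46.7 and 53.5 CPM in the unwounded and 90.5, 55.5, 80.7 and 50.3 in the wounded libraries, with a log2 fold change of 0.52 ± 0.23 (SE, adjusted p = 1). *Tina-1* was the 1 gene with a smaller change in LM cells (-0.96 ± 0.23, SE, adjusted p = 0.0472), and the call was lost without unwounded replicate 1 (log2 -1.01, adjusted p = 0.11), unwounded replicate 2 (log2 -0.91, adjusted p = 0.143), unwounded replicate 3 (log2 -0.97, adjusted p = 0.172) or unwounded replicate 4 (log2 -0.92, adjusted p = 0.0606).

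**Figure D4:**
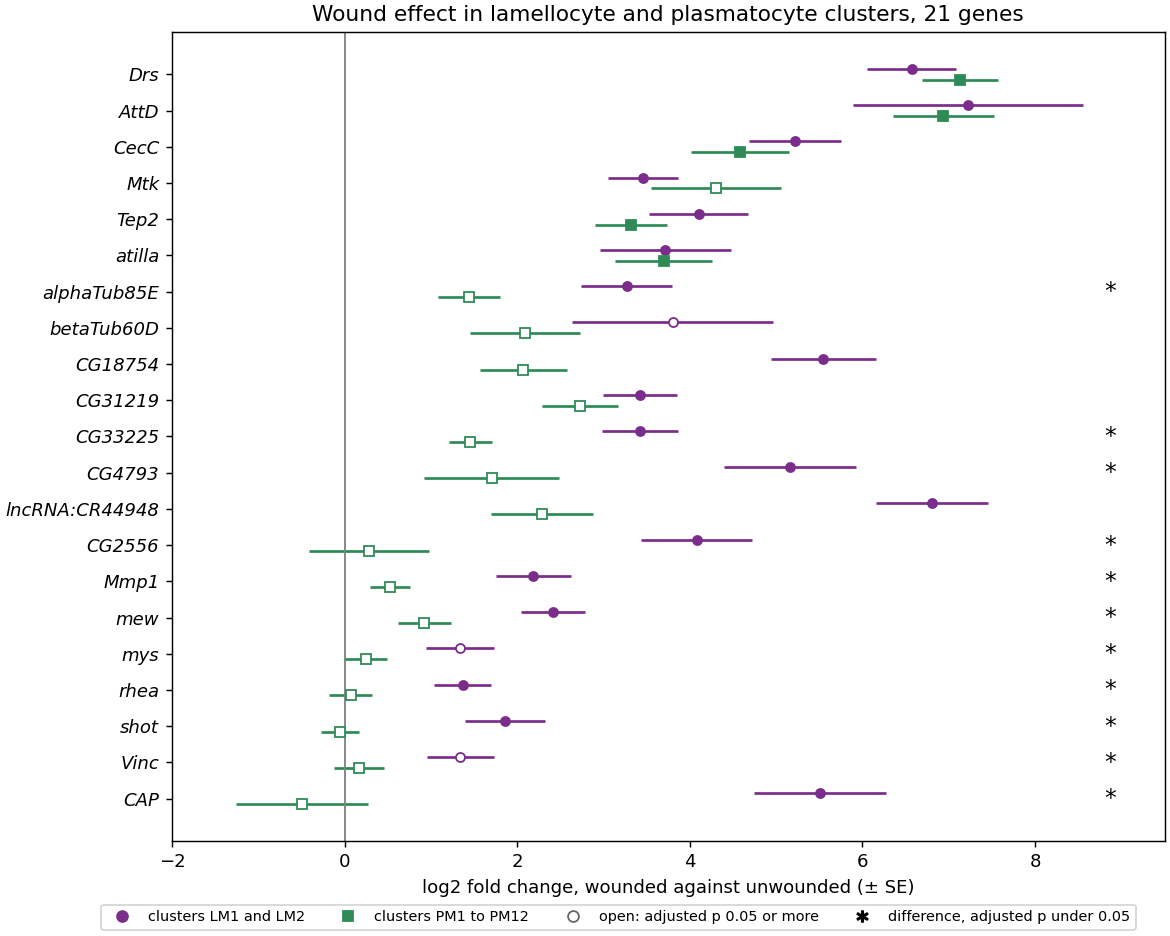
Log2 fold change of wounded against unwounded (x axis, ± SE, n = 4 libraries in each condition) for 21 genes in clusters LM1 and LM2 (circles) and in clusters PM1 to PM12 (squares). Filled symbols have an adjusted p under 0.05, and an asterisk marks an adjusted p under 0.05 for the difference between both classes. *Drs*, *AttD*, *CecC* and *Tep2* are called in both classes, and 11 of the 21 genes have a difference that was called.

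For several of the largest differences, plasmatocyte levels were high in 1 or 2 control libraries. *Acbp2* (6.84 ± 0.44, SE, adjusted p = 3.86e-10), *CG34330* (11.02 ± 1.11, SE, adjusted p = 3.02e-06) and *Jon99Cii* (8.74 ± 1.05, SE, adjusted p = 6.16e-05) had 289.5, 147 and 3725 CPM in the plasmatocyte clusters of unwounded replicate 2, and at most 14.7 CPM in those of any other library. *Jon99Cii* is a gene of a digestive protease, and in LM cells it had 0, 5, 2 and 0 and 13, 5, 0 and 0 UMIs. The metallothionein genes *MtnE* and *MtnD* had 45.4 and 46.5 CPM in plasmatocytes of unwounded replicate 1 and 91.4 and 15.7 in replicate 2, and at most 6.79 CPM elsewhere. In LM cells they had 4, 2, 9 and 0 and 7, 2, 12 and 0 UMIs in wounded replicates 1 to 4 and 0 in the unwounded libraries. For *CG42675* the difference was 5.86 ± 1.29 (SE, adjusted p = 0.0247). The call was lost for *Acbp2* without unwounded replicate 2 (log2 8.09, adjusted p = 0.0953), for *CG34330* without unwounded replicate 2 (log2 1.26, adjusted p = 0.986), for *MtnD* without unwounded replicate 1 (log2 8.39, adjusted p = 0.134) or unwounded replicate 2 (log2 8.85, adjusted p = 0.0647) and for *CG42675* without unwounded replicate 1 (log2 5.86, adjusted p = 0.0618) or unwounded replicate 2 (log2 1.75, adjusted p = 0.947). Without unwounded replicate 2 the size of the difference thus fell for *CG34330* and *CG42675* and did not fall for *Acbp2* and *MtnD*. The number of genes that differed was 24 without unwounded replicate 2, 15 without unwounded replicate 1, 32 without unwounded replicate 3, and 92 to 132 without unwounded replicate 4, wounded replicate 2 or wounded replicate 3.

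The change itself differed between 10X Chromium and inDrops for 5 of 5933 genes (0.0843%), larger in inDrops for 4 (0.0674%) and smaller for 1 (0.0169%). On simulated counts, this test recovered 0% of 2-fold and 7.22% of 4-fold differences, so the low count does not show that both technologies agreed. For *Fkbp12*, *Scsalpha1* and *Fkbp59*, the difference came with row names. These genes had 0 UMIs in every cell of both unwounded inDrops libraries, and rows named *Dyak-FK506-bp2*, *Dyak-Scsalpha* and *Dyak-FKBP59* held counts there and none in the wounded inDrops libraries. *Fkbp12*, for instance, had 482 to 734 CPM over all cells in the other 6 libraries, and *Dyak-FK506-bp2* had 801 and 589.8 CPM in the unwounded inDrops libraries. Of the 4 genes split in this way (with *Pgm1*), 0 were called in LM cells by the test without the block, while with the replicate block *Fkbp12*, *Scsalpha1* and *Fkbp59* were among the 272, with their unwounded inDrops counts held in the other rows. *CG6218* had 0 TMM-scaled CPM in both unwounded and 153 and 164 in both wounded inDrops libraries. The call of *CG6218* was lost without unwounded replicate 2 (log2 9.03, adjusted p = 1) or unwounded replicate 3 (log2 9.64, adjusted p = 0.614). *betaTub60D*, with a log2 fold change of 8.30 in 10X Chromium and 0.45 in inDrops, was the fifth (difference -7.54 ± 1.31, adjusted p = 0.00185), and the call was lost without unwounded replicate 4 (log2 -4.07, adjusted p = 1), whose UMIs of this gene all came from the LM2 cell described above. The calls of *Fkbp12*, *Scsalpha1* and *Fkbp59* were lost without unwounded replicate 3 (adjusted p = 0.156, 0.505 and 0.614), with differences of 11.89, 10.17 and 9.32 that were as large as with it (11.83, 10.11 and 9.25). The genes next in order of p, which did not pass, were *CG14610*, *CG15347*, *PPO3*, *CG2556* and *CG34330* (adjusted p = 0.0606 to 0.281). For each of them the fitted difference of inDrops from 10X Chromium was below 0. Over all genes, 128 had an unadjusted p under 0.05.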

How the data were processed

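Hemocyte libraries were made by the authors with 10X Chromium v2 or inDrops, and reads were aligned, demultiplexed and counted per cell and gene with unique molecular identifiers (UMIs). The submitters' processing notes name Cell Ranger 3.1.0 and SAMtools, and gene filters on cells differed between libraries. The merged counts and the cluster numbers, which the authors obtained with Seurat and Harmony from the same expression values, were deposited. The deposited count table holds raw UMI counts of 10392 genes, and the authors' percent of mitochondrial UMIs per cell was used as deposited. No doublet caller was run.

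UMIs of LM1 and LM2 cells were summed per library (at least 10 cells each), with 18691 to 1192495 UMIs a library, so that genes with few UMIs carry large counting error. The sums were tested with edgeR 4.0.16 (quasi-likelihood test, TMM scaling, filterByExpr, technology as covariate) in R 4.3.3 with limma 3.58.1, and DESeq2 1.42.0 was an alternative. Adjusted p-values are Benjamini-Hochberg values over all genes tested, and genes under 0.05 are called. The difference from plasmatocytes (clusters PM1 to PM12) was the interaction of class and wounding over 16 sums with library as block. The difference between technologies was the interaction of technology and wounding. Sums and shares were computed in Python 3.11.15 with numpy 2.4.6, scipy 1.17.1 and pandas 2.3.3. Intervals of shares are 95% exact Clopper-Pearson intervals and, with the floor of 3 UMIs, cover counting error only.

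The replicate numbers of the labels match unwounded with wounded libraries. For inDrops replicates 3 and 4 the labels state that each pair was multiplexed. For 10X Chromium they give the number alone, so that pairing is not established. Deviations of same-numbered libraries from their group means correlated with r = 0.40 in 10X Chromium and 0.17 in inDrops over 5509 genes, which are not independent.

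Named genes were *atilla*, the 12 with the largest change in each direction among called genes with a mean of at least 20 TMM-scaled CPM in the higher group and separated groups within each technology, up to 4 called members of each of 42 gene lists and direction, and the 6 largest differences from plasmatocytes in each direction with called list members. Where fewer than 10 genes were called, the 10 smallest p-values were named. Members, lists and rules were chosen with earlier results of these data known. On simulated counts for the main comparison (5285 genes), 91.9% of changes of 4-fold and 12.6% of changes of 2-fold were recovered, with 9.9% of calls false. Gene positions are from the Ensembl annotation of Release 6. Other scalings, filters, cluster choices, single technologies and each library left out were tried.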

Additional observations from a re-analysis of the deposited data

Results flagged for a closer look

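Within groups of 4 libraries, a value was set apart when its gap to the nearest of the others exceeded Dixon's 95% critical value, which chance gives in about 5% of groups. Where all other libraries of a group are at 0, any UMI exceeds it, so the rate of 5% does not hold. This was so for *CG1208*, *ItgaPS4*, *Drip*, *CG10232* and *CG4793* in the unwounded group. Of 58 groups tested, 13 held a value set apart, 7 of them in unwounded replicate 4, the library with 13 LM cells. There, *atilla* stood above the other unwounded libraries with 416 TMM-scaled CPM (11 UMIs) and *Mmp1* with 378 (10 UMIs), *CG1208*, *ItgaPS4* and *Drip* with 37.8 each (1 UMI each) and *Tret1-1* with 75.6 (2 UMIs), while *Mtk* lay below them with 37.8 (1 UMI). The value of *CG10232* in unwounded replicate 2 was 1.41 (1 UMI), and that of *CG4793* in unwounded replicate 3 was 4.36 (2 UMIs), against 0 in the remaining unwounded libraries. Among wounded libraries, replicate 1 was far above the rest for *shot* (1316), *alphaTub85E* (3893) and *Tret1-1* (315), and replicate 3 for *CG4793* (135).

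By the interaction test, the wound effect differed between technologies for 5 genes. The log2 difference, inDrops minus 10X Chromium, was 11.83 for *Fkbp12*, 10.11 for *Scsalpha1*, 9.25 for *Fkbp59*, 9.57 for *CG6218* and -7.54 for *betaTub60D*. The wound effect differed between LM cells and plasmatocytes for 59 genes by the interaction test.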

How the results depend on the processing

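The 99 called genes became 60 in cluster LM1 alone, 174 in LM1 with the replicate block (an alternative added after the data were seen), 272 with the replicate block, 24 with inDrops only, 22 without the technology covariate and 195 without the filter on low counts, and ran from 93 to 150 when each library was left out. The 59 differences from plasmatocytes became 37 against all other cells, 17 with LM1 alone and 142 without the filter, and ran from 15 to 132 when each library was left out. The 5 differences between technologies became 2 with DESeq2 and 10 without the filter, and ran from 3 to 13 when each library was left out. The difference in *atilla* share ran from 4.26 to 10.2 percentage points when each library was left out. Direction turned for *Jon99Cii* (difference from plasmatocytes, DESeq2, -0.84), *Pax* (inDrops only, -0.00021), *Fkbp12* (10X Chromium only, -0.13), *CG15347* (inDrops only, -0.25), *PPO3* (inDrops only, -0.96) and the technology difference of *PPO3* (from -6.32 to 0.53 when each library was left out, the latter without unwounded replicate 4), each a log2 value, and the cause was not tested. Of 33 named genes called in LM cells, 12 kept their call under every alternative that gave a value, namely *Acbp2*, *CAP*, *CG10232*, *CG18754*, *CG31769*, *CG4793*, *CG9733*, *CecC*, *Drs*, *ItgaPS4*, *Mtk* and *lncRNA:CR44948*. Of 44 named results in LM cells, the replicate block brought 10 past the threshold (*Tina-1*, *mys*, *Vinc*, *Ilp6*, *Fkbp12*, *Scsalpha1*, *Fkbp59*, *betaTub60D*, *CG15347* and *PPO3*) and took 0 below it. For *betaTub60D* and *PPO3* the pairs disagreed in direction, as given above. Among named results of all comparisons, 20 fell below the threshold with DESeq2, 18 with inDrops only, 17 each in LM1 alone and without the covariate, and 4 with 10X Chromium only. The 13 cells and 18691 UMIs of unwounded replicate 4 limit every value set against it, since 1 UMI there is 37.8 TMM-scaled CPM, and 4 called genes had 0 and 20 had 1 to 3 UMIs over all unwounded libraries. The 4 genes with 0 passed the filter on low counts through the wounded libraries alone. Others with few unwounded UMIs would not have passed it by their unwounded libraries. Counts of calls in the gene lists thus depend in part on the filter.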

Other observations

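Beyond the 4 serine protease genes named above, genes with a RefSeq synonym of the SP or SPH form were counted. The form also takes in genes outside the family, such as *Ank2*, *Aplip1*, *Ntan1* and *skd*, so the set only approximates it. *CG18478* and *CG31827* had the same UMI counts in every library. This count was chosen after values were seen and carries no test. Of 120 such genes in the table, 40 were tested, and 11 were called higher and 0 lower, with a median log2 fold change of 0.47 against 0.03 over all genes. Of all genes, 1.69% were called higher. Most of the 11, among them *CG9733*, *CG12133*, *CG10232* and *CG4793*, would not have passed the filter on low counts by their unwounded libraries. The share called in the set thus depends on the filter. In LM1 alone 10 of 37 were called higher, against 1.05% of all genes. With the replicate block 19 were called higher and 1 lower of 43, against 3.71% and 0.876% of all genes. In plasmatocytes 0 of 48 were called, where 0.136% of all genes were called. The median of the set in plasmatocytes was 0.32, with 2.73 for *CG31219* (adjusted p = 0.0506) and 1.46 for *CG33225* (adjusted p = 0.0773), and the difference from plasmatocytes was called for 3 of 55 genes, all larger in LM cells, against 0.825% of all genes. *CG12133* had 0, 0, 0 and 0 UMIs in the unwounded and 15, 34, 20 and 5 in the wounded libraries. *CG31219* had 0, 9, 23 and 3 UMIs in the unwounded and 140, 233, 384 and 318 in the wounded libraries, and *Sp212* had 0, 1, 3 and 1 UMIs in the unwounded and 39, 43, 45 and 22 in the wounded libraries. *CG33225*, *CG33226*, *SPH93* and *CG16710* completed the 11, with log2 fold changes of 3.43, 3.07, 2.48 and 2.00.

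*Gli* and *Fas3* were also among the called genes and are named here after their values were seen. *Gli*, which encodes gliotactin of septate junctions, had 0, 0, 1 and 0 UMIs in the unwounded and 34, 13, 30 and 13 in the wounded libraries (log2 fold change 4.67 ± 0.85, SE, adjusted p = 0.00163 in edgeR). *Fas3*, which encodes the adhesion protein Fasciclin 3, had 1, 1, 1 and 1 and 23, 13, 46 and 16 UMIs (log2 fold change 2.87 ± 0.66, SE, adjusted p = 0.0166 in edgeR).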
